A study of Rattus norvegicus with 6 samples.

Results

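Integrins are receptors of 2 chains, alpha and beta, through which cells hold on to matrix and to other cells. The 10 genes described here encode the integrin chains Itgb2, Itgam, Itgal, Itga4, Itga5, Itgav, Itgb1, Itgb3 and Itga7, and melusin, a striated muscle protein that binds the beta1 chain and is encoded by Itgb1bp2. They were chosen by gene symbol and not by measured value, though with earlier results of these data known. All 10 were among the 28293 genes of the expression table.

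Myocardial tissue of 3 sham rats and 3 rats with myocardial ischemia/reperfusion injury (MI/RI) was sequenced. All were labelled as wild type, and the surgery was described for male rats. In the MI/RI group the left anterior descending coronary artery was closed for 30 min, and the heart was taken after 6 h of reperfusion. The labels print the same times for the sham rats, and neither the strain nor the age is given for these samples in the sources used here. The tissue was bulk myocardium, so that more cells of a type and more RNA per cell cannot be told apart. Nothing in the labels says how much of the sampled tissue had been ischemic.

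As background, leukocytes attach to the vessel wall through beta2 integrins, which share the Itgb2 chain, and through the integrin of Itga4 and Itgb1. Itgb2 pairs with Itgal in the receptor LFA-1 and with Itgam in the receptor Mac-1, and both bind Icam1, whereas the Itga4 receptor binds Vcam1. Cardiomyocytes anchor to laminin through Itga7 with Itgb1, many cells bind fibronectin through Itga5 with Itgb1, and Itgb3 pairs with Itgav on vascular and other cells and with Itga2b on platelets.

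Values are FPKM, a fragment count divided by gene length and library size, and log2 differences were taken on log2(FPKM + 0.1), MI/RI minus sham. The mRNAs encoded by mitochondrial DNA held 80.1% to 86.2% of the summed FPKM in the sham samples and 61.8% to 71.5% in the MI/RI samples, and the median log2 difference of all 10942 genes tested was 0.29. Outside the most abundant genes, the smallest whole-number counts that fit the FPKM came to 8915768 to 11184247 fragments in a sham sample and 11855875 to 15499732 in an MI/RI sample. The cardiomyocyte marker genes summed to 3465 to 11360 FPKM in the sham samples and to 23350 to 33680 FPKM in the MI/RI samples, and 6 of 7 were higher in the limma test described next. Markers of heart muscle were thus present in every sample, at unequal levels.

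Of the 10 integrin genes, 8 passed the filter of a mean of at least 0.5 FPKM, and 5 of these 8 were higher after MI/RI on the deposited scale, whereas none was lower (limma, Benjamini-Hochberg adjusted p under 0.05 over all genes tested). Among all genes tested, 25.5% were higher and 7.36% lower by the same rule. A limma-voom fit on the recovered fragments also gave 5 higher and 0 lower, beside 2907 and 857 of 10899 genes. At an unadjusted p under 0.05 in limma, 6 members were higher and 0 lower. No share of all genes was counted at that unadjusted threshold, so this count has no background beside it. The genes that passed were Itgb1bp2, Itga7, Itga5, Itgb1 and Itgb3, and Itgb3 reached the filter only through its MI/RI values. The median log2 difference of the 8 tested members was 0.92, with a range of 0.08 to 1.73. These counts depended on the scale. With the mitochondrially encoded mRNAs left out of the scaling, 1 of 8 members, Itgb1bp2, was higher beside 7.25% of all genes. After quantile normalization 0 of 8 were higher, beside 13.2% of all genes. At an unadjusted p under 0.05, again without a counted share of all genes, 2 members were then higher. With log2 values centred on the cardiomyocyte markers, the 8 tested members turned negative and 5 were called lower, beside 82.0% of all genes, whose median was then -2.01.

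Libraries also carried unequal weight. Without sham replicate 3 only 1 of the 5 members, Itgb1bp2, was called higher, beside 14.0% of all genes. Without sham replicate 2 there were 3, beside 17.5% of all genes. In each of the other 4 leave-one-out fits there were 4, beside 2063 to 2557 of the 10942 genes. Each limma p-value set a group difference against the within-group spread of these 6 rats, pooled in part over all genes tested.

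**Figure D1:**
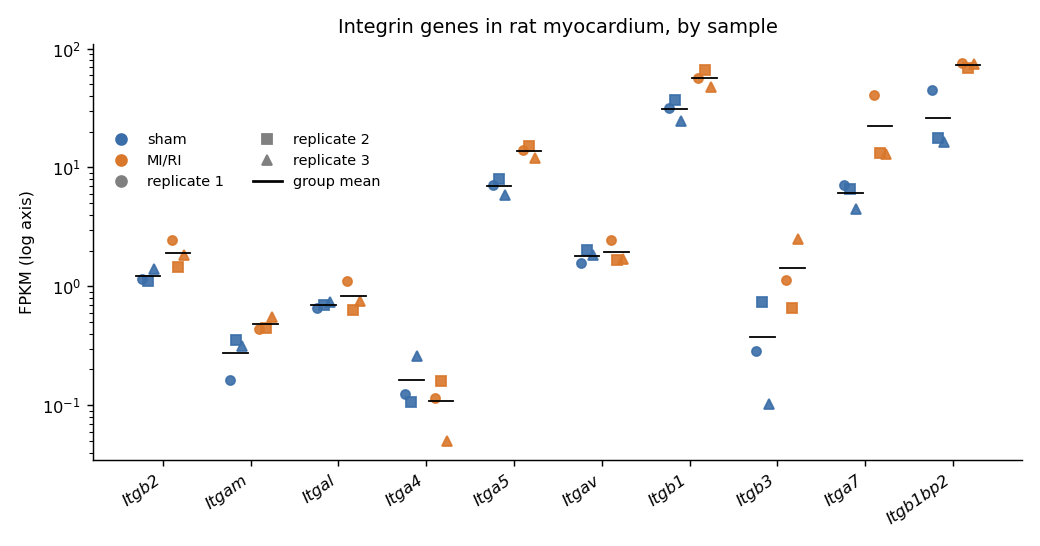
FPKM of the 10 integrin genes on a log axis, with 1 point per sample, sham in blue, MI/RI in orange, marker shape for the replicate number and black lines for group means. The MI/RI points lie above the sham points for Itgb2, Itgam, Itga5, Itgb1, Itga7 and Itgb1bp2, and the groups overlap for Itgal, Itga4, Itgav and Itgb3.

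In the sham myocardium the highest mean levels per gene length were those of Itgb1 (31.1 FPKM) and Itgb1bp2 (26.3 FPKM), whose ranges overlapped. Itga5 (7.01 FPKM) and Itga7 (6.07 FPKM) came next and also overlapped each other. Itgav at 1.80 FPKM, Itgb2 at 1.22 FPKM and Itgal at 0.698 FPKM followed, and the ranges of these 3 were separate. Itgb3, Itgam and Itga4 came last, each overlapping its neighbour, and Itgal also overlapped Itgb3. After MI/RI the order began with Itgb1bp2 at 72.8 FPKM and Itgb1 at 56.8 FPKM, whose ranges were now apart. Itga7 at 22.2 FPKM and Itga5 at 13.7 FPKM followed with ranges that overlapped. Itgav, Itgb2, Itgb3 and Itgal formed a run in which each overlapped the next, and Itgam and Itga4 stood below them.

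For 3 members that were called higher and have an entry in the promoter table, the 250 bases before the annotated start are printed to show the sequence upstream of transcripts that were higher together on the deposited scale. The sequences are from RefSeq on build GRCr8, a build that the files do not name, so no measured value is tied to these positions. Itga5 starts after chr7:136381306-136381555 on the minus strand, Itgb1 after chr19:73602027-73602276 on the plus strand and Itgb1bp2 after chrX:70612271-70612520 on the plus strand. Capitals mark the GC box (GGGCGG) and the CCAAT box (CCAAT), each searched on both strands.
Itga5: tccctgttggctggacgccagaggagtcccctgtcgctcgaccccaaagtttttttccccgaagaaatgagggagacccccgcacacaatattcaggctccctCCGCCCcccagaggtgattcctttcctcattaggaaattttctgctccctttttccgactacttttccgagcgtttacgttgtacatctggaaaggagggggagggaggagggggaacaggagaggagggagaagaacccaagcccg
Itgb1: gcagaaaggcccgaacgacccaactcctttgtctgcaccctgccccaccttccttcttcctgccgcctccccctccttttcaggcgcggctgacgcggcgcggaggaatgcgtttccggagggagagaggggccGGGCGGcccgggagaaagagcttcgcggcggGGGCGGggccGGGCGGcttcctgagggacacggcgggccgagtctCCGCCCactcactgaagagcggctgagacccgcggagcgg
Itgb1bp2: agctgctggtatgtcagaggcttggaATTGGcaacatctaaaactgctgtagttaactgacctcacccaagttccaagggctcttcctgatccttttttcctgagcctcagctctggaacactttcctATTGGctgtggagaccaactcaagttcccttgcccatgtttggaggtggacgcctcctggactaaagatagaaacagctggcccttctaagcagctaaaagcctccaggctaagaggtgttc

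The Itgb1 window held 4 GC boxes, the Itga5 window 1, and the Itgb1bp2 window 2 CCAAT boxes and no GC box. Across 27457 promoters of the same length, 32.4% held a GC box and 34.3% a CCAAT box. Of the 10 members, 6 had a promoter in the table, and the GC box was in 4 of these, those of Itgam, Itgav, Itga5 and Itgb1. The E box (CANNTG), a motif of muscle and other factors that 65.2% of all promoters hold, was in 4 of the 6, including Itga5 and Itgb1bp2. The core motif GAGGAA of PU.1, a myeloid factor, was in 4 of the 6 against 23.2% of all promoters, and these were Itgam, Itgav, Itga5 and Itgb1. The kappaB site, searched by its consensus, had 2 overlapping matches in Itga5 and none in the other 5 promoters (3.52% of all). The AP-1 site (TGANTCA, 6.36% of all), the CArG box (1.5%) and the MEF2 site (3.07%) were in none of the 6 windows. A match describes letters only.

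Melusin, which binds the cytoplasmic tail of the beta1 chain in heart and skeletal muscle, was the member with the smallest adjusted p. Itgb1bp2 stood at 44.6, 17.7 and 16.4 FPKM in sham replicates 1 to 3 and at 75.7, 69.1 and 73.7 FPKM in the MI/RI replicates. The MI/RI samples lay close together and above all sham samples, of which replicate 1 was far above the other two. The means were 26.3 ± 15.9 and 72.8 ± 3.39 FPKM (SD, n = 3 each), and Itgb1bp2 was higher by 1.63 ± 0.36 on the log2 scale (SE; limma, adjusted p = 0.0095), a direction that flipped to -0.67 with cardiomyocyte marker centring. Of all genes tested, 6.93% rose more. Without sham replicate 2 the adjusted p was 0.051, and without sham replicate 1 it was 0.00062 with a log2 difference of 2.09. Sham replicate 1 also had the highest cardiomyocyte marker sum of its group, 11360 FPKM against 3916 and 3465. The part of that sum in the Itgb1bp2 values was not tested.

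Itga7, the laminin-binding alpha chain of muscle, was likewise higher. It measured 7.18, 6.53 and 4.48 FPKM in the sham samples and 40.4, 13.2 and 13.0 FPKM in the MI/RI samples. Groups did not overlap, and MI/RI replicate 1 stood well above the rest of its group. Itga7 was higher by 1.67 ± 0.42 on the log2 scale (SE; limma, adjusted p = 0.015), and centring on the cardiomyocyte markers turned this to -0.63. Without MI/RI replicate 1, which had the largest cardiomyocyte sum (33680 FPKM) and the smallest share of mitochondrial mRNA, the difference was 1.13 and still passed (adjusted p = 0.021). Without sham replicate 2 or sham replicate 3 it did not pass, with adjusted p = 0.054 and 0.056, and without a filter on low values the adjusted p was 0.052.

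**Figure D2:**
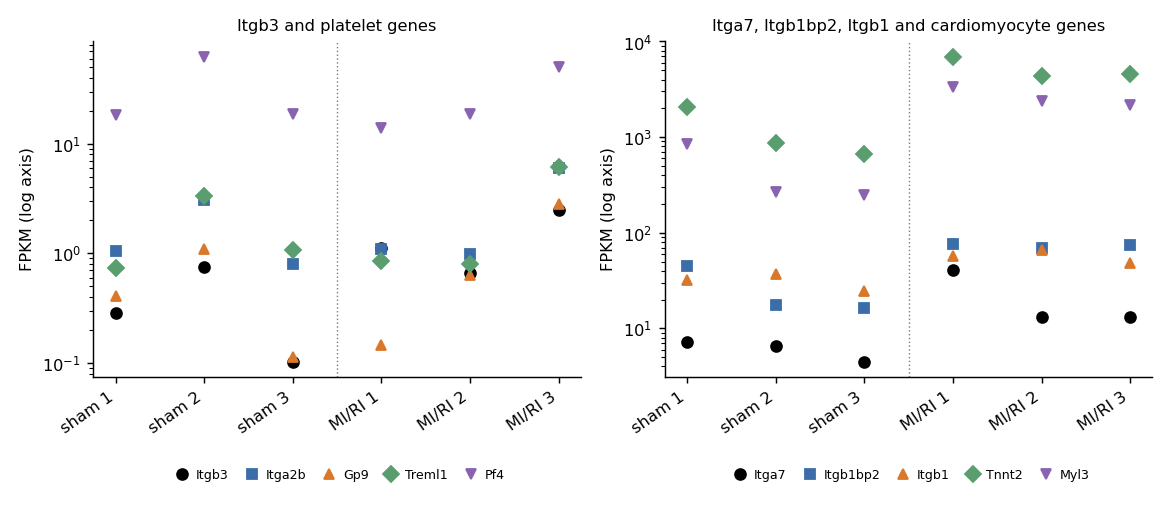
FPKM on a log axis for each of the 6 samples, with Itgb3 beside the platelet genes Itga2b, Gp9, Treml1 and Pf4 on the left, and Itga7, Itgb1bp2 and Itgb1 beside the cardiomyocyte genes Tnnt2 and Myl3 on the right. On the left, sham replicate 2 and MI/RI replicate 3 are the high samples of their groups, and on the right MI/RI replicate 1 has the highest Itga7 level.

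The genes whose log2 levels followed Itga7 most closely over the 6 samples were Fbxw5, Uqcc1 and Pigq, with a Pearson r of 0.998 each. Fbxw5 ran from 4.97 to 6.61 FPKM in the sham samples and reached 24.5 FPKM in MI/RI replicate 1, beside 11.5 and 10.5 FPKM in replicates 2 and 3. All were picked for their likeness to Itga7 over the same samples, so a high value in MI/RI replicate 1 was part of that choice. These 6 points share the group difference and the library scale, and the likeness is a description.

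The common beta1 chain Itgb1, partner of Itga4, Itga5, Itgav and Itga7, was the most abundant integrin chain in both groups. It measured 31.7, 36.9 and 24.8 FPKM in the sham samples and 56.4, 66.0 and 47.9 FPKM in the MI/RI samples. The groups did not overlap. Itgb1 was higher by 0.87 ± 0.25 on the log2 scale (SE; limma, adjusted p = 0.024), but the direction flipped to -0.09 after quantile normalization and to -1.42 with cardiomyocyte centring, and it was 0.09 with mitochondrial mRNAs left out. Without sham replicate 3 the adjusted p was 0.10, and without MI/RI replicate 2 it was 0.095.

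Itga5, whose product binds fibronectin together with the beta1 chain, followed the same course. It measured 7.14, 8.04 and 5.85 FPKM in the sham samples and 13.9, 15.2 and 12.0 FPKM in the MI/RI samples. In both groups replicate 2 was highest and replicate 3 lowest, as for Itgb1, and the groups were apart. Itga5 was higher by 0.96 ± 0.23 on the log2 scale (SE; limma, adjusted p = 0.012), with 20.4% of all genes rising more, and the direction flipped to -1.33 with cardiomyocyte centring. Without sham replicate 3 the adjusted p was 0.054. Itga5, Itgb1, Itga7 and Itgb1bp2 had means of at least 5 FPKM, and in a fit restricted to genes at that level all 4 were called higher, beside 50.0% of the genes.

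Itgb3, the beta chain of the vitronectin receptor and of the platelet fibrinogen receptor, had the largest log2 difference and the widest spread of the 8 tested members. It measured 0.287, 0.744 and 0.103 FPKM in the sham samples and 1.13, 0.661 and 2.50 FPKM in the MI/RI samples. Sham replicate 2 lay above MI/RI replicate 2, so the groups overlapped. The values rested on 143 fragments over the sham samples and 425 over the MI/RI samples. The mean was 0.378 FPKM in the sham samples, below the filter of 0.5 FPKM, and 1.43 FPKM in the MI/RI samples. Itgb3 was thus tested only because of the group in which it was high. Itgb3 was higher by 1.73 ± 0.58 on the log2 scale (SE; limma, adjusted p = 0.045) and turned to -0.56 with cardiomyocyte centring. The call was lost in 4 of the 6 leave-one-out fits, with adjusted p = 0.093 without sham replicate 1, 0.14 without sham replicate 3, 0.092 without MI/RI replicate 1 and 0.15 without MI/RI replicate 3. Without the filter on low values the adjusted p was 0.12, and with a pseudocount of 1 in place of 0.1 the difference was 0.77 (adjusted p = 0.051).

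Platelet genes moved with Itgb3 in part. The platelet markers summed to 19.6, 68.8 and 20.0 FPKM in the sham samples and to 15.1, 20.1 and 60.6 FPKM in the MI/RI samples, so that sham replicate 2 and MI/RI replicate 3 were high. Most of that sum was Pf4, with means of 33.1 FPKM in the sham samples and 27.7 FPKM in the MI/RI samples. Itga2b, the platelet alpha chain that pairs with Itgb3, measured 1.05, 3.05 and 0.796 FPKM in the sham samples and 1.09, 0.979 and 5.99 FPKM in the MI/RI samples. Its log2 difference was 0.42 ± 0.66 (SE; limma, adjusted p = 0.65). Of the 7 platelet markers, 3 were tested and limma called 0, also at an unadjusted p under 0.05, Gp1bb was at 0 in all samples and Gp6 was not among the rows used. In MI/RI replicate 1 Itgb3 was high for its level of platelet genes, at 1.13 FPKM with a platelet sum of 15.1 FPKM. The part of platelet RNA in the Itgb3 values was not tested.

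Itgav, the alpha chain that pairs with Itgb3, Itgb1 and Itgb5, overlapped between groups. It measured 1.56, 2.01 and 1.84 FPKM in the sham samples and 2.44, 1.66 and 1.68 FPKM in the MI/RI samples. The difference was 0.08 ± 0.24 on the log2 scale (SE; limma, adjusted p = 0.83), and it was negative with 4 of the 5 other scalings. In MI/RI replicate 1 alone the level lay above the sham range.

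Itga4, the alpha chain of the Vcam1 receptor of lymphocytes and monocytes, was the lowest member. It measured 0.126, 0.106 and 0.260 FPKM in the sham samples and 0.115, 0.161 and 0.0499 FPKM in the MI/RI samples, from 87 and 47 fragments per group. The groups overlapped, and Itga4 was below the filter, so no adjusted p was drawn from the reported fit. The exact permutation p was 0.5. The lymphocyte markers summed to 15.1 to 26.6 FPKM in the sham samples and 13.1 to 16.4 FPKM in the MI/RI samples, with 2 of the 6 tested lower and 0 higher.

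Among the beta2 integrins, of which 2 of 3 were tested, none was called. Itgb2, the chain that all leukocytes carry, measured 1.15, 1.11 and 1.39 FPKM in the sham samples and 2.47, 1.45 and 1.83 FPKM in the MI/RI samples. All MI/RI samples lay above all sham samples, by the least margin between sham replicate 3 and MI/RI replicate 2. The log2 difference was 0.59 ± 0.26 (SE; limma, adjusted p = 0.11), from 672 fragments over the sham samples and 852 over the MI/RI samples, and it was -0.15 with mitochondrial mRNAs left out and -1.71 with cardiomyocyte centring. Over all genes tested, 37.2% had every MI/RI sample above every sham sample. Of the 8 tested members 5 did so, and Itgam, which was not tested, did so too.

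Itgam, the Mac-1 chain of neutrophils, monocytes and macrophages, measured 0.163, 0.351 and 0.317 FPKM in the sham samples and 0.437, 0.443 and 0.556 FPKM in the MI/RI samples. These values stood on 15 to 38 fragments per sham sample and 35 to 45 per MI/RI sample. The groups were apart, sham replicate 1 was lowest, and the log2 difference was 0.65, with an exact permutation p of 0.1, the smallest that 3 against 3 samples can give. Itgam was below the filter, and without the filter its adjusted p was 0.23 (limma, Benjamini-Hochberg).

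Itgal, the LFA-1 chain of lymphocytes and other leukocytes, measured 0.663, 0.693 and 0.738 FPKM in the sham samples and 1.10, 0.627 and 0.759 FPKM in the MI/RI samples. The groups overlapped, and MI/RI replicate 1 alone was clearly above the sham range. The log2 difference was 0.19 ± 0.31 (SE; limma, adjusted p = 0.67) and was negative with median centring, with mitochondrial mRNAs left out and with cardiomyocyte centring.

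Leukocyte markers beside the beta2 genes did not move as 1 group. The neutrophil markers summed to 12.9 to 17.7 FPKM in the sham samples and 28.2 to 83.5 FPKM in the MI/RI samples, with 3 of the 4 tested higher, whereas Mpo was at 0 in all samples. Of these 4, Mmp8 (called, sham mean 0.176 FPKM) and Csf3r (not called, sham mean 0.258 FPKM) reached the filter of 0.5 FPKM only through the MI/RI samples. MI/RI replicate 1 had the lowest neutrophil sum of its group, 28.2 FPKM, and the highest Itgb2 level. The monocyte and macrophage markers summed to 47.8 to 69.0 and 63.2 to 82.1 FPKM, with 1 of 7 higher and 2 lower. Most of that sum was Lyz2, which was not called, with means of 41.85 FPKM in sham and 54.98 FPKM in MI/RI samples. The gene called higher was Cd14 (1.73), and those called lower were Cd163 (-1.38) and Mrc1 (-0.77). The pan-leukocyte markers summed to 58.9 to 78.3 and 64.6 to 68.0 FPKM, with Arhgdib as the largest part (means of 31.2 and 32.4 FPKM). Of the 7 tested, limma called 0, with 1, Ptprc, lower at an unadjusted p under 0.05. Ptprc, the leukocyte surface phosphatase CD45, had all MI/RI samples below all sham samples. Its log2 difference was -0.93 in the reported limma fit (adjusted p = 0.067). In limma-voom it was -1.08, and there Ptprc was called lower (adjusted p = 0.014). Its MI/RI mean of 0.414 FPKM was below the filter. Ptprc was named after its value was seen, and 3 of the 7 tested pan-leukocyte markers had log2 differences above 0. The part of each cell type in the beta2 levels was not tested. The genes whose log2 levels were most like Itgb2 over the 6 samples were Fam76a (r = 0.997), Prmt7 (r = 0.991) and Ddx28 (r = 0.985), given as a description of samples that share a group difference and a scale.

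**Figure D3:**
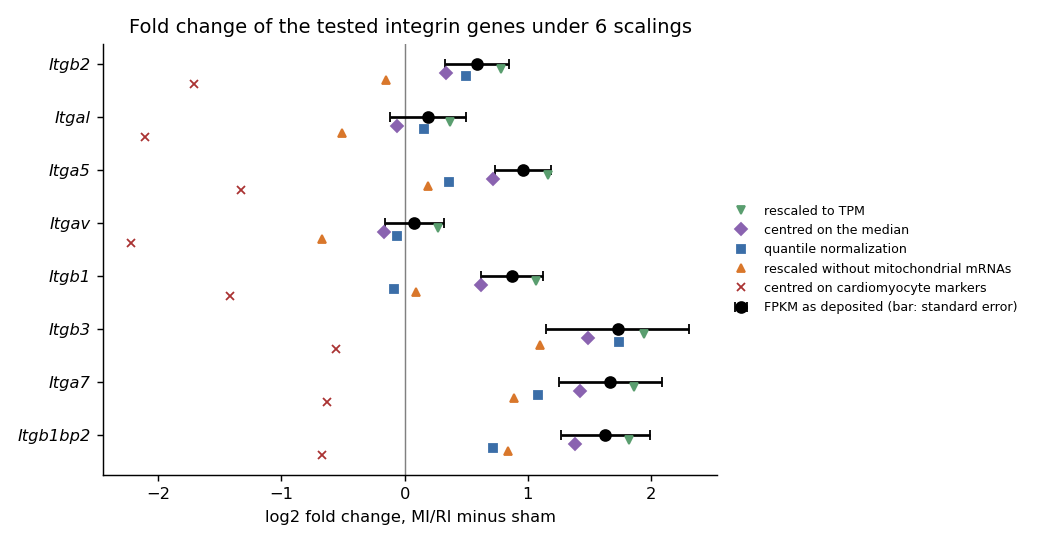
Log2 difference, MI/RI minus sham, of the 8 tested integrin genes, with black points and bars for the deposited FPKM and its standard error, and coloured marks for 5 other scalings. All 8 genes lie above 0 on the deposited scale and after rescaling to TPM, and all 8 lie below 0 when centred on the cardiomyocyte markers.

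The balance between 2 genes within 1 sample is unaffected by a scale factor that all genes of the library share, apart from the added 0.1. Quantile normalization, which moves genes of different level unequally, can change it. For 10 pairs the log2 ratio of the genes was compared between groups by an exact, two-sided permutation test, whose smallest p is 0.1 with 3 samples a group, and the smallest Benjamini-Hochberg value over the 10 pairs was 0.25, so no pair passed. Within same-numbered samples, which were treated as pairs in a further test, 4 ratios were lower and 3 higher in each of the 3 MI/RI samples than in its partner, and 3 were mixed (smallest two-sided exact sign-flip p = 0.25, the lowest that 3 pairs can give).

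Within the beta2 receptors, Itgal over Itgb2 had log2 ratios of -0.71, -0.61 and -0.83 in the sham samples and -1.10, -1.09 and -1.17 in the MI/RI samples. All MI/RI samples lay below all sham samples, and the difference was -0.40 (exact permutation p = 0.1). Itgam over Itgb2 differed by 0.06 (exact permutation p = 1.0) and Itgam over Itgal by 0.46 (exact permutation p = 0.3), and both overlapped. Within the 3 pairs Itgam over Itgal was higher by 0.37, 0.39 and 0.62 (exact sign-flip permutation p = 0.25). Itgb2 over Itgb1 differed by -0.28 and overlapped too (exact permutation p = 0.6).

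Around the beta1 chain, Itga5 over Itgb1 was the steadiest ratio. It was -2.14, -2.18 and -2.06 in the sham samples and -2.01, -2.11 and -1.99 in the MI/RI samples, a difference of 0.09 (exact permutation p = 0.2). Itgav over Itgb1 fell outside the sham range in all MI/RI samples, at -4.48, -5.23 and -4.75 against -4.26, -4.13 and -3.68, a difference of -0.79 (exact permutation p = 0.1). Itga4 over Itgb1 was apart too, with a difference of -1.20 (exact permutation p = 0.1), though on few fragments of Itga4. The muscle pairs overlapped. Itga7 over Itgb1 was -2.13, -2.48 and -2.44 in the sham samples and -0.48, -2.31 and -1.87 in the MI/RI samples, and the difference of 0.79 (exact permutation p = 0.2) leaned on MI/RI replicate 1. Itgb1bp2 over Itgb1 was 0.49, -1.05 and -0.59 in the sham samples and 0.42, 0.07 and 0.62 in the MI/RI samples, with sham replicate 1 inside the MI/RI range.

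Itgav over Itgb3, the chains of 1 receptor, had log2 ratios of 2.10, 1.32 and 3.26 in the sham samples and 1.05, 1.21 and -0.54 in the MI/RI samples. The groups were apart by a narrow gap between sham replicate 2 and MI/RI replicate 2, and the difference was -1.66 (exact permutation p = 0.1). MI/RI replicate 3, which had the high platelet sum, was the 1 sample with more Itgb3 than Itgav per length.

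**Figure D4:**
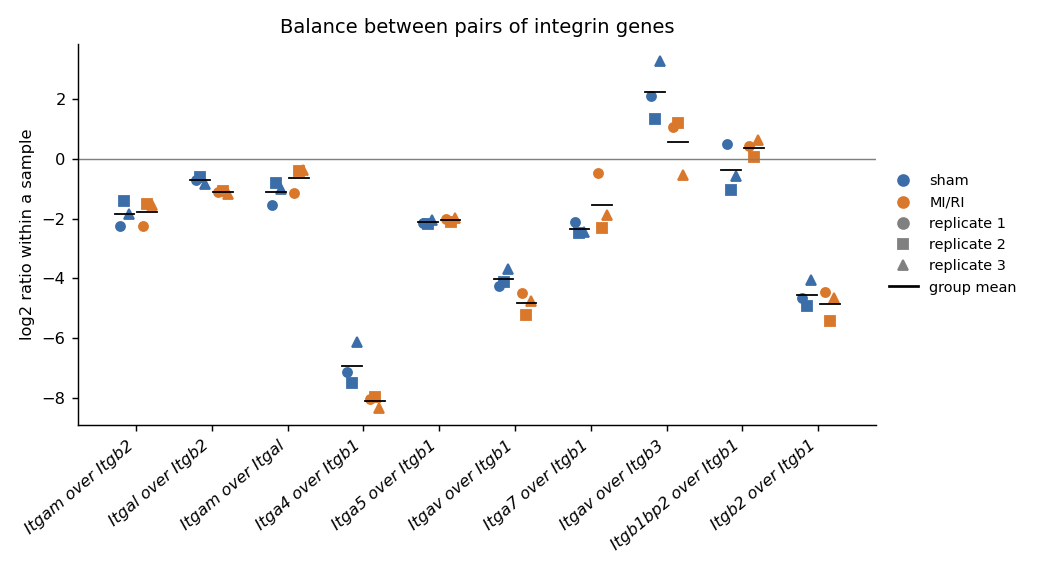
Log2 ratio of 2 genes within each sample for 10 pairs, with sham in blue, MI/RI in orange, marker shape for the replicate number and black lines for group means. The groups are apart for Itgal over Itgb2, Itga4 over Itgb1, Itgav over Itgb1 and Itgav over Itgb3, with the MI/RI samples lower in each.

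Of the 17 other integrin chains, 10 were tested, 2 were higher and 0 lower (25.5% and 7.36% of all genes), and their median log2 difference was 0.52. Itga3, a laminin-binding chain, was higher by 1.35 ± 0.29, at 1.88, 1.38 and 0.839 FPKM in the sham samples against 3.07, 3.81 and 3.61 FPKM (limma, adjusted p = 0.0086), though it was -0.94 with cardiomyocyte centring. Itga9, a receptor chain for matricellular proteins, was higher by 1.28 ± 0.29 (limma, adjusted p = 0.010), or -1.02 with that centring. Neither passed with mitochondrial mRNAs left out of the scaling (adjusted p = 0.15 and 0.24). The beta2 partners Itgax and Itgad, chains of dendritic cells and macrophages, overlapped between groups. Itgax ran from 0.689 to 1.88 FPKM in the sham samples and 0.608 to 1.45 FPKM in the MI/RI samples, a log2 difference of -0.39, and Itgad, below the filter, had a difference of -0.44. Among the beta1 and alphav partners, Itga6, a laminin chain, differed by 0.01 and Itga1, a collagen chain, by 0.47, both overlapping. Itgb5, a beta chain for Itgav, differed by 0.57 with the groups apart and an adjusted p of 0.084 (limma).

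Of 27 adaptor and signalling genes of the integrin tail, 25 were tested, 4 were higher and 0 lower (25.5% and 7.36% of all genes), with a median of 0.43. The largest difference was that of Bcar1, a docking protein of focal adhesions, which measured 3.40, 3.98 and 2.72 FPKM in the sham samples and 11.7, 17.3 and 10.7 FPKM in the MI/RI samples. It was higher by 1.93 ± 0.26 (limma, adjusted p = 0.0026) and was -0.37 with cardiomyocyte centring. Zyx, the focal adhesion protein zyxin, was higher by 1.26 and Parvb, a partner of integrin-linked kinase, by 1.20, and both turned negative with that centring. Without sham replicate 3 the adjusted p of Parvb was 0.056, and 2 adaptors in all were called higher, beside 14.0% of all genes. The talins and kindlins, which also bind beta tails, did not pass where tested. Tln1 differed by 0.56 (adjusted p = 0.11, limma), Tln2 by 0.51 and Fermt2, a kindlin of heart and other tissues, by 0.54. Fermt3, the kindlin of blood cells, differed by -0.11, and Ilk and Vcl, the kinase-like scaffold and vinculin, differed by 0.24 and 0.31. Lims2 was the remaining gene called higher, by 0.85 (-1.44 with cardiomyocyte centring), and was named after its value was seen. Fermt1 was at 0 in all samples.

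Among 22 ligand genes, 18 were tested, 6 were higher and 0 lower (25.5% and 7.36% of all genes), and the median was 0.66. Icam1, the endothelial ligand of LFA-1 and Mac-1, measured 2.70, 2.03 and 3.91 FPKM in the sham samples and 15.2, 13.7 and 21.1 FPKM in the MI/RI samples. It was higher by 2.52 ± 0.29 (limma, adjusted p = 0.0012), and 0.22 with cardiomyocyte centring. Vcam1, the ligand of the Itga4 receptor, measured 0.886, 0.951 and 1.52 FPKM in the sham samples and 7.77, 2.33 and 7.04 FPKM in the MI/RI samples. Its difference was 2.11 ± 0.43 (limma, adjusted p = 0.0070), and it was -0.18 with cardiomyocyte centring. Both ligands lay above the sham range in every MI/RI sample. Of the chains of their receptors, Itgb2, Itgam and Itgb1 lay above the sham range in every MI/RI sample, as did 37.2% of all genes tested. Of these 3, Itgb2 was not called and Itgam was below the filter. Itgal and Itga4 overlapped between groups.

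The largest differences among the ligands were those of Thbs1 and Ccn1. Thbs1, thrombospondin 1, ran from 0.716 to 1.14 FPKM in the sham samples and from 30.2 to 50.9 FPKM in the MI/RI samples, and was higher by 5.22 ± 0.27 (limma, adjusted p = 1.3e-05). Ccn1, a ligand of alphav integrins, ran from 5.73 to 8.09 FPKM and from 32.5 to 126 FPKM, and was higher by 3.41 ± 0.44 (limma, adjusted p = 0.0022). With cardiomyocyte centring Thbs1 stood at 2.92 and Ccn1 at 1.12, and both were still called higher (limma, adjusted p = 4.5e-06 and 0.028). The remaining 2 genes called on the deposited scale were Lamc1, a laminin chain, by 1.05 and Ccn2, a relative of Ccn1, by 1.04. They were named after their values were seen, and with cardiomyocyte centring they stood at -1.25 and -1.25. Fn1, fibronectin, differed by 0.26, Lama2, the laminin chain of muscle, by 0.31 and Spp1, osteopontin, by 1.25 with an SE of 0.93, and none of these 3 passed. Spp1 was at 2.10 FPKM in sham replicate 1 and at most 0.141 FPKM in the other sham samples, and without that replicate it was higher by 2.47 (limma, adjusted p = 0.021). Of the fibrinogen genes, Fga, Fgb and Fgg were at 0 in all samples. On the deposited scale and with the filter at 0.5 FPKM, no gene of the lists of other chains, adaptors and ligands was lower in limma or limma-voom, nor at an unadjusted p under 0.05 in limma (0 in each). After quantile normalization 2 ligands were lower, beside 1559 of the 10942 genes. At an unadjusted p under 0.05 the lower genes were then 1 chain, 3 adaptors and 5 ligands. The share of all genes at that unadjusted threshold was not counted.

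**Figure D5:**
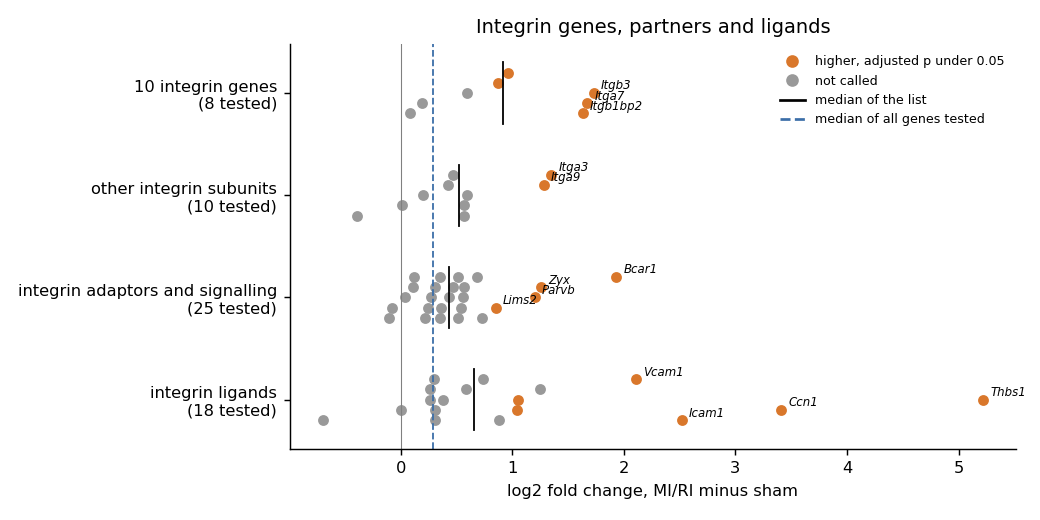
Log2 difference, MI/RI minus sham, of each tested gene among the integrin members, other integrin chains, adaptors and ligands, with orange for genes called higher and grey for the others. Black lines mark the list medians of 0.92, 0.52, 0.43 and 0.66, and the dashed line marks the median of all genes tested, 0.29.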

How the data were processed

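Total RNA from rat myocardium had been made into stranded libraries, and the authors deposited FPKM per gene and sample in 1 table. The submitters' processing notes name STAR and HTSeq. Their roles, versions, the genome build and the annotation are not given in the sources used here, nor is the strand setting of the counting, so reads of overlapping or antisense genes cannot be assigned with certainty. Columns were matched to samples by name, and rows with the same symbol were summed.

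Log2(FPKM + 0.1) was compared between 3 sham and 3 MI/RI samples for 10942 genes, those whose mean over the samples reached 0.5 FPKM, with limma 3.58.1 in R 4.3.3 (lmFit, eBayes with trend) and Benjamini-Hochberg adjustment at 0.05. The paper's text names no test for single genes of the sequencing data. Ratios within samples were compared with exact permutation tests. The fit was tested on simulated data, drawn gene by gene around the sham means. Those data held no scale difference between libraries, so that test says nothing about the choice of scaling.

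FPKM moved in whole steps in 99.78% of 19481 rows with a value (tolerance 0.002), which gave fragments per gene as the smallest whole numbers. True counts may be a common multiple of these. Relative depth was 1.18, 1.14, 0.873, 0.935 and 0.881 for sham replicates 2 and 3 and MI/RI replicates 1 to 3, against 1 for sham replicate 1.

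The replicate numbers come from the labels. Deviations from the group means of same-numbered samples correlated at 0.203, 0.117 and 0.118, each above 0.1, although sham replicate 3 with MI/RI replicate 2 reached 0.12. The numbers were treated as pairs in a blocked fit beside the reported one. These correlations do not set same-numbered samples apart from the others, so the pairing itself remains uncertain.

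All 10 members are named. From each list of other chains, adaptors and ligands, up to 3 called genes were named for the greatest rise and 2 for the greatest fall, with 16 fixed partners, and the 3 genes most like Itgb2 and Itga7. Members and lists were chosen with earlier results of these data known. The alternatives were pseudocounts of 1 and 0.01, filters, scalings, no trend, the block, leaving out each sample, the highest row per symbol and a 2-fold minimum. A limma-voom fit on the recovered fragments (10899 genes) and a sign-flip test of ratios within pairs were chosen after seeing the data.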

Additional observations from a re-analysis of the deposited data

How the results depend on the processing

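Most calls depended on how the libraries were scaled, and the cause of the scale difference was not tested. Of the integrin members, 5 were called higher in the reported fit. With the log2 values centred on the cardiomyocyte markers 0 were higher and 5 lower, while other chains had 0 higher and 8 lower, adaptors 0 higher and 24 lower, and ligands 2 higher and 13 lower, beside 82.0% of all genes lower. The log2 differences then were -1.71 for Itgb2, -2.11 for Itgal, -1.33 for Itga5, -2.22 for Itgav, -1.42 for Itgb1, -0.56 for Itgb3, -0.63 for Itga7 and -0.67 for Itgb1bp2. Among the others they were -0.94 for Itga3, -1.02 for Itga9, -0.37 for Bcar1, -1.04 for Zyx, -1.10 for Parvb, -2.29 for Itga6, -1.72 for Itgb5, -1.83 for Itga1, -1.74 for Tln1, -1.78 for Tln2, -1.75 for Fermt2, -2.06 for Ilk, -1.99 for Vcl, -0.18 for Vcam1, -2.03 for Fn1, -1.04 for Spp1 and -1.98 for Lama2. With the mitochondrially encoded mRNAs left out, 1 member, 1 adaptor and 4 ligands were higher, no other chain was (0), and 1 adaptor and 2 ligands were lower. Of all 10942 genes, 793 were then higher and 2857 lower. Differences became -0.15 for Itgb2, -0.51 for Itgal, -0.67 for Itgav, -0.77 for Itga6, -0.20 for Itgb5, -0.22 for Itga1, -0.22 for Tln1, -0.21 for Tln2, -0.24 for Fermt2, -0.54 for Ilk, -0.47 for Vcl, -0.51 for Fn1 and -0.46 for Lama2. Quantile normalization gave 0 members, 2 other chains, 1 adaptor and 4 ligands higher and 2 ligands lower, with -0.06 for Itgav, -0.09 for Itgb1, -0.52 for Itga6, -0.11 for Tln1, -0.39 for Fermt2, -0.61 for Ilk, -0.37 for Vcl, -0.25 for Fn1 and -0.32 for Lama2. It called 1441 of all 10942 genes higher and 1559 lower. Median centring gave 3 members, 2 other chains, 3 adaptors and 5 ligands higher and 1 ligand lower, with -0.06 for Itgal, -0.17 for Itgav, -0.24 for Itga6 and -0.01 for Ilk. It called 2020 of all 10942 genes higher and 1554 lower. TPM gave 5 members, 2 other chains, 7 adaptors and 9 ligands higher, beside 3449 of all 10942 genes, and 0.07 for Fermt3. Over all genes, 77.6% of calls were higher on the deposited scale, against 87.3% with TPM, 56.5% with median centring, 48.0% with quantile normalization, 21.7% without mitochondrial mRNAs and 0.388% with cardiomyocyte centring.

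Without the filter 3 members were higher, beside 2198 of 19226 genes, and 1 other chain was lower, beside 639. That chain was Itgb6, with 15 fragments over the sham samples and 0 over the MI/RI samples, so its call rests on values at the floor. With a filter at 5 FPKM 0 other chains were higher. Itga3 and Itga9, the other chains called in the reported fit, had means below that filter and were not tested there. That count therefore says nothing about their differences. A 2-fold minimum left 3 members, and the share of all genes that it left was not counted. With a pseudocount of 1, 4 members were higher, beside 2775 of all 10942 genes, Itgb3 was lost, and Itgam over Itgb2 was -0.17. Leaving out 1 sample gave 1 to 4 members and 2 to 4 adaptors higher, beside 1528 to 2557 of all 10942 genes, each fewest without sham replicate 3. The differences then ran from -0.01 to 0.35 for Itgal, -0.10 to 0.17 for Itgav, -0.21 to 0.17 for Itga6, -0.01 to 0.83 for Itga1, -0.45 to 0.19 for Fermt3, -0.14 to 0.30 for Itgam over Itgb2 and -0.47 to 0.01 for Itgb2 over Itgb1.

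The replicate block left the 5 members called higher, each of them as in the reported fit, with adjusted p from 0.0016 for Itga7 to 0.047 for Itgb3, and gave 2 other chains, 5 adaptors and 8 ligands higher. The block called 3085 of all 10942 genes higher. It ended no member's call, and no ratio passed in the sign-flip test within pairs, which was chosen after seeing the data and cannot go below 0.25. The voom fit on recovered fragments also called 5 members higher, beside 2907 of 10899 genes. Itgam and Itga4, with at most 45 and 47 fragments in a sample, set the limit of depth.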
